A study of Mus musculus with 10 samples.

Results

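Lipolysis is the release of fatty acids from the triglyceride stored in the lipid droplet of a fat cell. Of the 23930 genes read in this series, 9 that carry out or control it were followed, chosen by name: the lipases Pnpla2, Lipe and Mgll, the related droplet protein Pnpla3, the lipase activator Abhd5 and the lipase inhibitor G0s2, the droplet coat protein Plin1, and the receptor Adrb3 and the phosphodiesterase Pde3b that set the signal upstream. All 9 had a row in the count table and all 9 passed the filter on low counts. RNA came from epididymal white adipose tissue, a visceral fat depot beside the epididymis, of 5 male Srgn-knockout mice (genotype Srgn-/-) and 5 male wild-type mice (genotype Srgn+/+). All 10 animals were C57BL/6, 18 weeks old, and had eaten a diet high in sucrose and fat during 8 weeks, so the series holds no lean or chow-fed mouse. Srgn encodes serglycin, a proteoglycan of the secretory granules of blood-derived cells. The labels name no promoter, Cre driver or deleted exon, and do not say whether the mice were littermates.

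In the fed state a fat cell holds its lipases back, and during fasting or adrenergic stimulation catecholamines bind the beta-adrenergic receptors, cyclic AMP rises and protein kinase A phosphorylates perilipin, the product of Plin1. Perilipin then lets go of ABHD5, which activates adipose triglyceride lipase, the product of Pnpla2, and this enzyme, hormone-sensitive lipase and monoglyceride lipase remove the fatty acids of a triglyceride in turn. Insulin opposes the process, in part through PDE3B, which breaks down cyclic AMP.

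Each library was made by amplicon sequencing, in which 1 short target per gene is amplified and read. Amplicons differ in efficiency, so levels are compared between libraries and not between genes. The 10 libraries held 7824764 to 10757779 reads, and the 9 genes had 521 to 41905 reads in any library, so that counting error is small beside the spread between mice. Srgn itself had 3, 1, 0, 0 and 12 reads in Srgn-knockout 1 to 5 and 776, 1047, 1301, 851 and 1005 reads in wild-type 1 to 5, and it was the 1 gene of 12719 past the threshold in the edgeR quasi-likelihood test (adjusted p = 9.44e-05). Fat-cell markers were abundant in every library: Adipoq, Lep, Fabp4, Car3, Cfd, Retn and Lpl together took 37478 to 57264 RPM (reads scaled to a common library total) in Srgn-knockout and 37510 to 63793 RPM in wild-type libraries, with no marker at 0. The 8 macrophage markers summed to 1741 to 3308 RPM in Srgn-knockout and 1636 to 5438 RPM in wild-type libraries, with C1qa at no more than 0.407 RPM anywhere and at 0 in 3 libraries. RNA of the epididymis (9 markers) reached 4252 and 1211 RPM in Srgn-knockout 3 and 5 and 505 RPM in wild-type 4, against at most 17.3 RPM in the other 7 libraries.

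The comparison of genotypes asks whether loss of serglycin changes the lipolytic machinery of diet-fed fat. No member passed the threshold of 0.05 in edgeR after adjustment over all genes, where 0.00786% of tested genes passed in either direction and 0% were higher in Srgn-knockout. At an unadjusted p under 0.05 edgeR held 1 of the 9 members, Pnpla3, against 12.8% of all tested genes, 6.77% with higher values in Srgn-knockout. The DESeq2 Wald test called 1 of the 9 at an adjusted p under 0.05, again Pnpla3, against 1.74% of tested genes, 0.896% of them higher. Fitted values were higher in Srgn-knockout for 6 members and lower for 3, and the median log2 fold change was 0.02. Of all tested genes 49.7% had higher values, with a median of -0.0014. Levels below are CPM, counts scaled to library size with TMM factors. Each log2 fold change is Srgn-knockout relative to wild-type, with its standard error, SE.

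**Figure D1:**
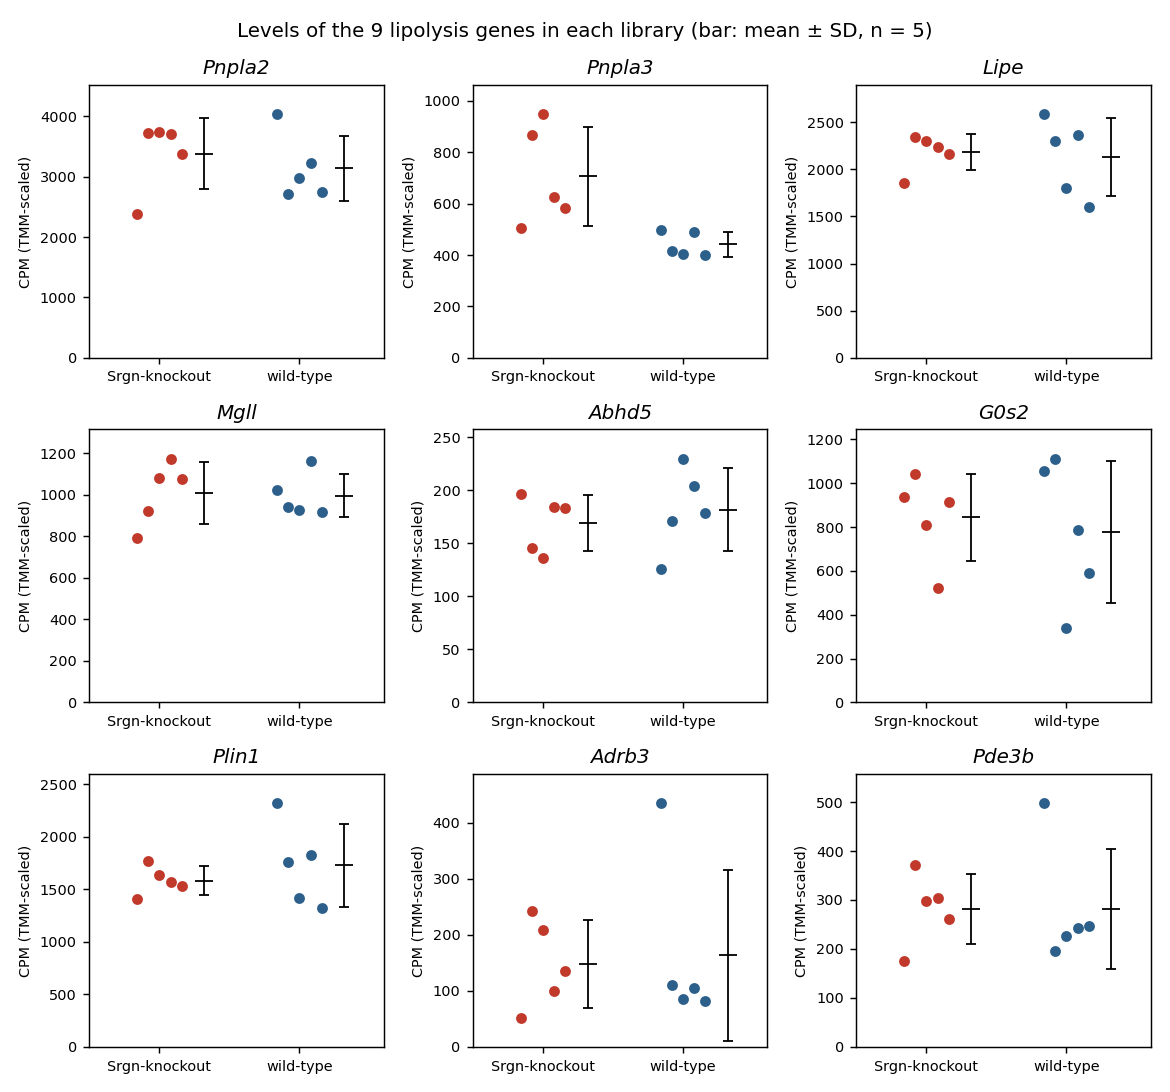
Level of each of the 9 lipolysis genes (vertical axis, TMM-scaled CPM from 0) in 5 Srgn-knockout (red) and 5 wild-type (blue) libraries, with the mean and SD beside the points. Pnpla3 is the gene whose groups do not overlap, at 505 to 948 CPM in Srgn-knockout and 400.4 to 499 CPM in wild-type libraries, and wild-type 1 stands above all other libraries for Adrb3 and Pde3b.

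Among the droplet enzymes, Pnpla3 had the largest difference of the 9 members. Pnpla3 encodes a droplet protein of the same patatin-like family as adipose triglyceride lipase, and in liver and fat its transcript is known to be induced by feeding and by the lipogenic transcription factors. Its level was 505, 867, 948, 628 and 582 CPM in Srgn-knockout 1 to 5, against 499, 417, 405, 489 and 400.4 CPM in wild-type 1 to 5. Every Srgn-knockout library lay above every wild-type library, by a narrow margin between Srgn-knockout 1 and wild-type 1, whereas Srgn-knockout 2 and 3 stood well apart from the rest. Srgn-knockout mice averaged 706 ± 191 CPM, against 442 ± 48.0 CPM for wild-type mice (SD, n = 5 each). The log2 difference was 0.67 (SE 0.169, 95% interval 0.31 to 1.04), with an edgeR unadjusted p = 0.00169 and an adjusted p = 0.193 over all genes. This placed Pnpla3 at rank 111 by p among the 12719 genes. Groups that did not overlap, with the higher values in Srgn-knockout, were found for 1.39% of all tested genes (2.78% in either direction), and among the members for Pnpla3 alone. The DESeq2 Wald test gave a log2 fold change of 0.67 with adjusted p = 0.0233, so the call depends on the test. With 1 library left out at a time the edgeR value was 0.55 to 0.77. Without the 3 libraries with epididymis RNA, an alternative chosen after the data were seen, it was 0.63 (edgeR unadjusted p = 0.00917, adjusted p = 0.999). In that smaller set 0 of the 9 members passed, beside 0.00772% of tested genes, and 1 of the 9 had an unadjusted p under 0.05, beside 4.17%.

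Pnpla2, adipose triglyceride lipase, takes the first fatty acid from triglyceride. Its level was 2383, 3715, 3746, 3702 and 3366 CPM in Srgn-knockout 1 to 5 and 4033, 2718, 2972.5, 3230.3 and 2739.9 CPM in wild-type 1 to 5. The groups overlapped, with Srgn-knockout 1 the lowest library of all and wild-type 1 the highest. The log2 fold change was 0.11 (SE 0.155, 95% interval -0.23 to 0.44, edgeR adjusted p = 0.801). It was 0.21 without wild-type 1 and 0.21 without Srgn-knockout 1 (edgeR adjusted p = 0.432 and 0.465).

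The promoters of these related genes are shown because the groups were apart for Pnpla3 and overlapped for Pnpla2. They are the 250 bases before the annotated start, from RefSeq on build GRCm38.p6, at chr15:84167566-84167815 (plus strand) for Pnpla3 and chr7:141454938-141455187 (plus strand) for Pnpla2, whereas the counts were made on mm9. Capitals mark the palindromic cyclic AMP response element TGACGTCA, the site of the factors that protein kinase A activates.
Pnpla3: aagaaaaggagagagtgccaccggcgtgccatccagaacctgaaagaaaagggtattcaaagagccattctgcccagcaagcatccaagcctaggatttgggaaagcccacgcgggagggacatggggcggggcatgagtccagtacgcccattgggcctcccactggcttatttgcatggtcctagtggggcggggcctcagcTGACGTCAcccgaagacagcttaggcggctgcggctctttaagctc
Pnpla2: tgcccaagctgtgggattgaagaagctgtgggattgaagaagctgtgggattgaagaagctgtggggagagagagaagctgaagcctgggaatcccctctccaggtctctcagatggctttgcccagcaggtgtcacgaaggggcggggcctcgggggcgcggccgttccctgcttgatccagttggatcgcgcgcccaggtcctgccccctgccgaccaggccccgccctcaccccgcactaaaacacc

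The element begins 46 bases before the start of Pnpla3. RefSeq entries were found for 7 of the 9 members (9 promoters, since Mgll and Lipe have 2 each), without Adrb3 and Pde3b, and 1 of these 9 promoters, that of Pnpla3, holds TGACGTCA on either strand, as do 1.55% of the 32851 promoters of the same length. Its shorter core TGACG, which overlaps it and was counted on both strands, is in the promoters of Pnpla3, Abhd5 and G0s2 and in 17.8% of all. The E-box CACGTG is in those of Lipe and Mgll and in 6.02% of all. The CCAAT box, counted on both strands, is among the members in that of Pnpla3 alone, and in 33.8% of all. The sterol response element TCACNCCAC and the peroxisome proliferator response element, searched on both strands, had 0 matches in the 9 windows, against 1.05% and 0.0335% of all. A match describes letters in a window and not a bound site.

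Lipe, hormone-sensitive lipase, which acts mainly on diacylglycerol, had 1857, 2345, 2299, 2240.3 and 2166 CPM in Srgn-knockout 1 to 5 and 2584, 2303, 1798, 2368 and 1605 CPM in wild-type 1 to 5. The Srgn-knockout libraries lay inside the wild-type range (log2 0.03, SE 0.140, 95% interval -0.27 to 0.34, edgeR adjusted p = 0.943). Mgll, monoglyceride lipase, which frees the last fatty acid and also degrades an endocannabinoid, was the steadiest of the 9, with a highest level 1.48 times its lowest. It had 793, 922, 1079.8, 1174 and 1075 CPM in Srgn-knockout 1 to 5 and 1025, 941, 926, 1165 and 918 CPM in wild-type 1 to 5, with the Srgn-knockout range the wider and reaching below the wild-type minimum (log2 0.02, 95% interval -0.25 to 0.29, edgeR adjusted p = 0.96).

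The proteins that switch adipose triglyceride lipase on and off did not pass either. Abhd5, its coactivator, had 197, 146, 137, 184 and 184 CPM in Srgn-knockout 1 to 5 and 126, 171, 229.9, 204 and 179 CPM in wild-type 1 to 5. The lowest and the highest library were both wild-type (log2 -0.10, SE 0.157, 95% interval -0.44 to 0.24, edgeR adjusted p = 0.814), and the log2 fold change ranged from -0.21 without wild-type 1 to -0.0035 without wild-type 3. G0s2, its inhibitor, had 938, 1041, 809, 521 and 914 CPM in Srgn-knockout 1 to 5 and 1056, 1112, 338, 789 and 589 CPM in wild-type 1 to 5. The lowest libraries were Srgn-knockout 4 and wild-type 3, each well below the top of its group, and the interval is wide (log2 0.12, SE 0.299, 95% interval -0.54 to 0.78, edgeR adjusted p = 0.894). Without wild-type 3 the log2 fold change of G0s2 was -0.07. Plin1, the coat protein that holds ABHD5 at rest, had 1407, 1775, 1633, 1567 and 1534 CPM in Srgn-knockout 1 to 5 and 2321, 1765, 1421, 1830.5 and 1319 CPM in wild-type 1 to 5. Its Srgn-knockout values lay within the wild-type range, which wild-type 1 stretches upward (log2 -0.13, SE 0.149, 95% interval -0.45 to 0.19, edgeR adjusted p = 0.744). Without wild-type 1 the log2 fold change of Plin1 was -0.0013.

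**Figure D2:**
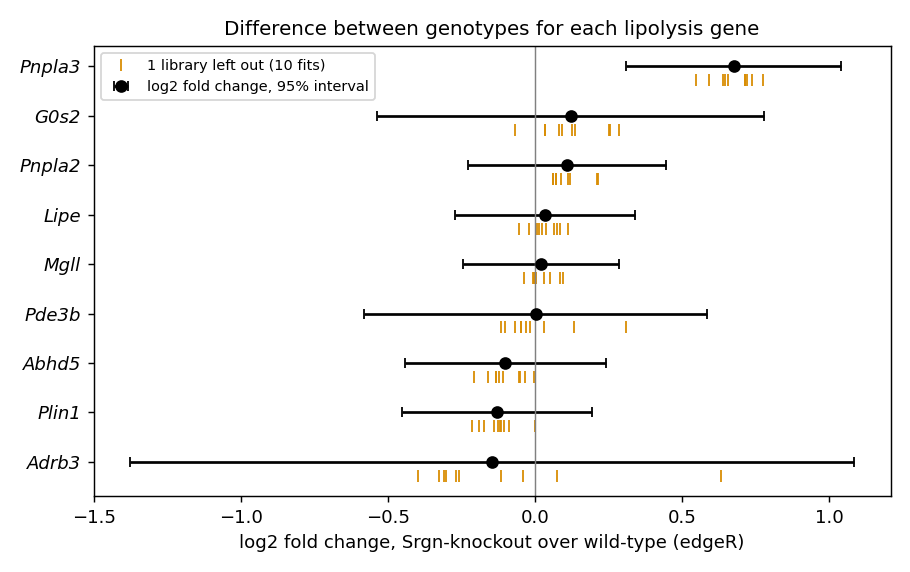
Log2 fold change of Srgn-knockout over wild-type for each lipolysis gene (dot) with its 95% interval from edgeR, and the values of 10 fits that leave out 1 library each (orange marks). The interval of Pnpla3 runs from 0.31 to 1.04, those of the other 8 genes include 0, and that of Adrb3 is the widest, from -1.38 to 1.09.

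The upstream signal genes differed more between mice than between genotypes. Adrb3, the adrenergic receptor typical of mouse fat cells, had 51.1, 242, 209, 100.02 and 135 CPM in Srgn-knockout 1 to 5 and 435, 110.2, 84.7, 105 and 81.3 CPM in wild-type 1 to 5. Wild-type 1 was 8.52 times the lowest library, Srgn-knockout 1, and Srgn-knockout 2 and 3 came next after wild-type 1. The log2 fold change of Adrb3 was -0.15 (SE 0.556, 95% interval -1.38 to 1.09, edgeR adjusted p = 0.936), and its sign rested on single libraries. It was 0.63 without wild-type 1 (SE 0.404, edgeR adjusted p = 0.431) and 0.07 without Srgn-knockout 1. Pde3b, which ends the cyclic AMP signal, had 176, 372, 298, 304 and 261 CPM in Srgn-knockout 1 to 5 and 498, 196, 226, 242 and 247 CPM in wild-type 1 to 5. Srgn-knockout mice averaged 282 ± 71.6 CPM, against 282 ± 122 CPM for wild-type mice (SD, n = 5 each; log2 0.0011, 95% interval -0.58 to 0.59, edgeR adjusted p = 0.999). Wild-type 1 again stood apart, and leaving it out gave a log2 difference of 0.31 (edgeR adjusted p = 0.37). After subtraction of the group means, the SD of log2 CPM was 0.95 for Adrb3, 0.57 for G0s2 and 0.47 for Pde3b, beyond 99.1%, 95.4% and 92.5% of the 1918 tested genes with a mean of at least 100 CPM, while Mgll with 0.19 lay near the middle, at 51.9%.

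Ratios of 2 members within a library take out the common scale of the library. Because amplicons differ in efficiency, a ratio is compared between libraries and not read as a ratio of transcripts. Of 7 ratios tested by a two-sided exact permutation test of the genotype labels, whose smallest possible p is 0.00794, Pnpla3 over Pnpla2 gave that smallest value. The log2 ratio of Pnpla3 to Pnpla2 was -2.56 to -1.98 in Srgn-knockout and -3.01 to -2.70 in wild-type libraries, a difference of 0.54 with no overlap (exact p = 0.00794, adjusted p = 0.0556 over the 7 ratios). Srgn-knockout 1, the lowest of its group for both genes, lay with the other Srgn-knockout libraries on this ratio, and wild-type 1, high for Pnpla2, had the lowest ratio of all. The numerator is the gene described above, so this ratio adds the scaling to Pnpla2 and is not independent of it. The inhibitor-to-lipase ratio G0s2 over Pnpla2 was -2.02 ± 0.55 in Srgn-knockout and -2.12 ± 0.67 in wild-type mice (SD, n = 5; log2 difference 0.10, exact p = 0.754). The coactivator-to-lipase ratio Abhd5 over Pnpla2 was -4.31 ± 0.47 in Srgn-knockout and -4.12 ± 0.51 in wild-type mice (difference -0.19, exact p = 0.548). With 1 library left out this difference ranged from -0.41 (without wild-type 1, exact p = 0.143) to -0.0758 (without Srgn-knockout 3, exact p = 0.802), and it was -0.37 without Srgn-knockout 1. The ratios of Lipe to Pnpla2, Mgll to Lipe, Plin1 to Abhd5 and Pde3b to Adrb3 differed by -0.05, -0.04, -0.02 and 0.04, with exact p-values of 0.714, 0.754, 0.976 and 0.897 (adjusted p = 0.976 for every ratio other than Pnpla3 over Pnpla2).

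**Figure D3:**
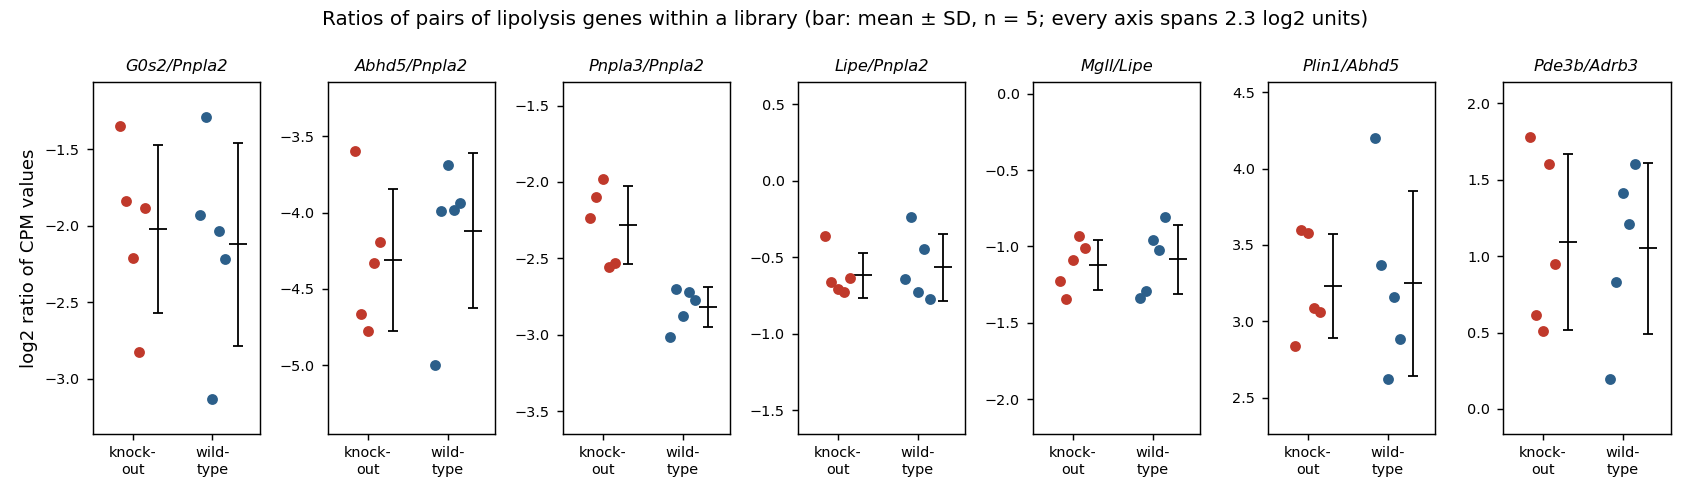
Log2 ratio of CPM values of 7 pairs of lipolysis genes in 5 Srgn-knockout (red) and 5 wild-type (blue) libraries, with mean and SD. The groups are apart for Pnpla3 over Pnpla2, at -2.56 to -1.98 in Srgn-knockout and -3.01 to -2.70 in wild-type libraries, and overlap for the other 6 ratios.

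Most pairs of members were positively correlated across mice, but few passed adjustment, and such values were not particular to the members. Among 10209 other genes ranked by r, Pde3b was at rank 124 for Adrb3 and 37 for Pnpla2, and Plin1 at rank 42 for Lipe. For Adrb3, 132 genes had r above 0.9. The counts below were not made over all pairs of genes. Over the 10 libraries 27 of the 36 pairs of members had a positive Pearson r of log2 CPM, with a median of 0.44, and 6 pairs passed a two-sided permutation test (100000 resamples) after adjustment over the 36. Of these, 5 were positive. Adrb3 and Pde3b had r = 0.90 (permutation p = 0.00034, adjusted p = 0.0042) and a Spearman rho of 0.73 (permutation p = 0.0193, adjusted p = 0.0995), and r was 0.70 without wild-type 1 and Srgn-knockout 2, the libraries farthest from the median of Adrb3. Pnpla2 and Pde3b had r = 0.90 (permutation p = 0.0003, adjusted p = 0.0042) and rho = 0.93 (permutation p = 0.00031, adjusted p = 0.00558), with r = 0.86 without wild-type 1 and Srgn-knockout 1. Lipe and Plin1 had r = 0.89 (permutation p = 0.00035, adjusted p = 0.0042) and rho = 0.99 (permutation p = 2e-05, adjusted p = 0.00072), with r = 0.89 without wild-type 3 and 5. Pnpla2 with Adrb3 (r = 0.84) and Plin1 with Adrb3 (r = 0.81) were the other positive pairs past adjustment (adjusted permutation p = 0.0128 and 0.0273), but their rho did not pass (rho = 0.82 and 0.79, permutation p = 0.00609 and 0.00872, adjusted p = 0.0731 and 0.0785), and r was 0.71 and 0.60 without the 2 libraries farthest from the median.

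Abhd5 ran against the others. It was negatively correlated with each of the other 8 members, and the pair with Adrb3 passed (r = -0.86, permutation p = 0.00123, adjusted p = 0.0111), with r = -0.69 without wild-type 1 and Srgn-knockout 3, and with rho = -0.76 (permutation p = 0.0149, adjusted p = 0.0896). At these levels, with genotype left in, no pair with G0s2, Mgll or Pnpla3 passed. With group means subtracted, which takes the genotype out, 14 pairs passed, 13 of them positive, among them Pnpla2 with Pnpla3 (r = 0.74, adjusted permutation p = 0.0197). The rho of this pair did not pass (rho = 0.75, adjusted permutation p = 0.0585), and its r was 0.61 without wild-type 1 and Srgn-knockout 1. It had r = 0.63 over the unadjusted levels (permutation p = 0.0555, adjusted p = 0.131). With group means subtracted, Pnpla3 also passed with Lipe (r = 0.60, rho = 0.72, adjusted permutation p = 0.0286 and 0.00396). The same held for Pnpla3 with Plin1 (r = 0.59, rho = 0.73, adjusted permutation p = 0.0197 and 0.0113). Pnpla3 with Adrb3 (r = 0.76) and with Pde3b (r = 0.64) passed on r but not on rho. Lipe with Plin1 had r = 0.95 in these values (adjusted permutation p = 0.00288).

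**Figure D4:**
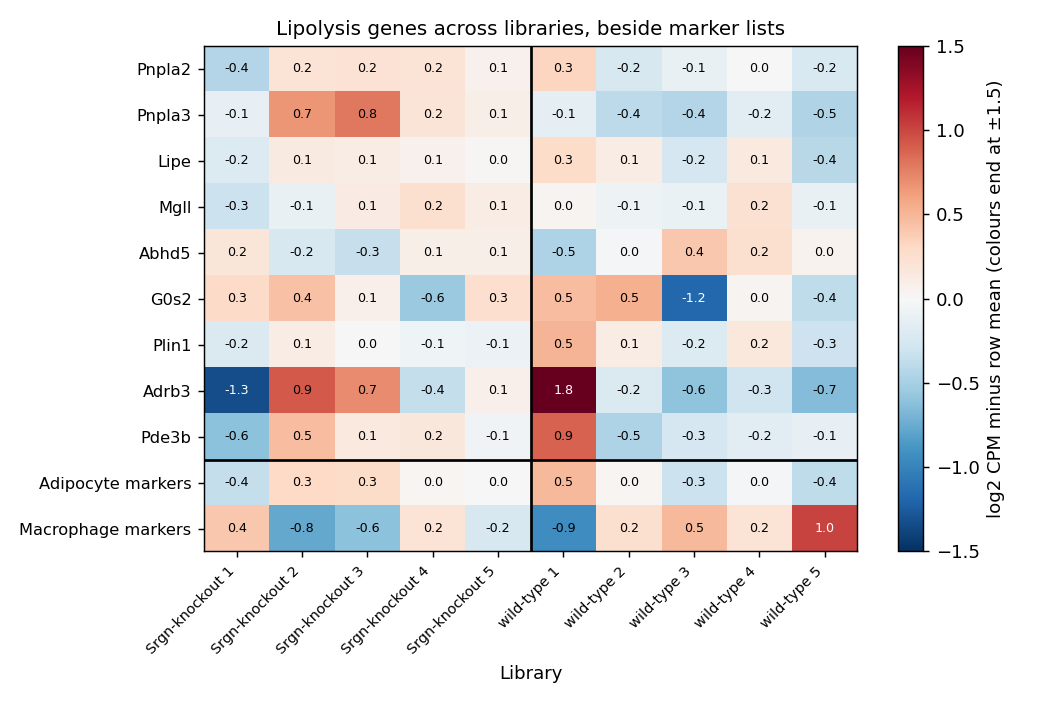
Log2 CPM minus the row mean for the 9 lipolysis genes in each library, Srgn-knockout left and wild-type right, above the mean of 7 adipocyte markers and of 7 tested macrophage markers treated the same way. Srgn-knockout 2 and 3 and wild-type 1 are highest for Adrb3 and low for Abhd5, and they hold the highest adipocyte and lowest macrophage marker levels.

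In a bulk library fewer cells of a type and less RNA per cell cannot be told apart, so the marker levels are given beside this pattern, in a set of 27 correlations added after the values were seen, with p-values adjusted over the 27. The 7 adipocyte markers did not vary alike. Fabp4 had 13985 to 17937 RPM and Lpl 7269 to 9251 RPM, against 461 to 2012 RPM for Retn and 1318 to 11036 RPM for Cfd. The more variable markers therefore weigh most in the variation of their mean. Fitted values were higher in Srgn-knockout for 2 of the 7 and lower for 5. Against the mean log2 CPM of the 7 adipocyte markers, Adrb3 had r = 0.94 and rho = 0.93 (permutation p = 4e-05 and 0.00031, adjusted p = 0.00108 and 0.00661), and r = 0.93 without wild-type 1 and 5, the libraries farthest from the median. Lipe (r = 0.90), Plin1 (r = 0.86), Pnpla2 (r = 0.85) and Pde3b (r = 0.82) followed with adjusted permutation p-values of 0.00414, 0.00526, 0.0112 and 0.0124, and their rho was 0.79, 0.81, 0.78 and 0.71 (adjusted permutation p = 0.0318 for the first 3 and 0.0501 for Pde3b, whose rho did not pass). Without the same 2 libraries their r was 0.86, 0.71, 0.78 and 0.79. Abhd5 had r = -0.85 and rho = -0.76 (adjusted permutation p = 0.0112 and 0.0367), and r = -0.88 without these libraries. Mgll (r = 0.45), G0s2 (r = 0.55) and Pnpla3 (r = 0.61) did not pass (adjusted permutation p = 0.224, 0.124 and 0.0945; rho = 0.37, 0.58 and 0.58, adjusted permutation p = 0.308, 0.121 and 0.121).

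Macrophage markers went the other way. Their mean had r = -0.89 and rho = -0.92 with Adrb3 (adjusted permutation p = 0.00414 and 0.00661), r = -0.81 with Lipe, -0.79 with Pnpla2, -0.76 with Pde3b, -0.75 with Plin1 and -0.70 with Pnpla3, and r = 0.79 with Abhd5, all under an adjusted permutation p of 0.05, that of Pnpla3 at 0.0499. Without wild-type 1 and Srgn-knockout 2 these r were -0.78, -0.75, -0.67, -0.43, -0.54, -0.85 and 0.58 in the same order of genes. The rho of Abhd5 with the macrophage markers did not pass (rho = 0.67, adjusted permutation p = 0.0658). Mgll (r = -0.28) and G0s2 (r = -0.55) did not pass on r (adjusted permutation p = 0.446 and 0.124). For Pnpla3 the endothelial markers, which had higher fitted values in Srgn-knockout for 5 of 5 genes, gave r = 0.80 and rho = 0.85 (permutation p = 0.00468 and 0.00281, adjusted p = 0.014 and 0.019), and r = 0.84 without wild-type 4 and 5. Genotype was left in these values. With the same markers Pnpla2 had r = 0.67, Adrb3 0.66 and Abhd5 -0.66 (adjusted permutation p = 0.065, 0.065 and 0.068). On r no member other than Pnpla3 passed, but the rho of Adrb3 did (rho = 0.78, adjusted permutation p = 0.0318). The summed endothelial markers were 587 to 848 RPM in Srgn-knockout and 496 to 696 RPM in wild-type libraries, and their part in the difference of Pnpla3 was not tested. Other marker lists also had all their tested genes on one side, although 0 of these genes passed in edgeR. T-cell markers were lower in Srgn-knockout for 5 of 5 genes, with sums of 12.7 to 18.4 RPM in Srgn-knockout and 20.1 to 46.1 RPM in wild-type libraries. These sums do not overlap, but the mean log2 CPM of the same genes does. It was 1.73 in Srgn-knockout 3, against 1.67, 1.61 and 1.43 in wild-type 1, 4 and 5. Values were lower for 7 of 7 tested macrophage and 3 of 3 B-cell markers, and higher for 3 of 3 tested smooth muscle and 3 of 3 tested brown or beige adipocyte markers. The part of these lists in the difference of Pnpla3 was not tested. The macrophage markers were themselves lower in Srgn-knockout, so the fit that follows cannot fully tell genotype and macrophage level apart. With the macrophage marker level of each library as a covariate in edgeR, an alternative chosen after the data were seen, the log2 fold change of Pnpla3 was 0.51 (SE 0.130, unadjusted p = 0.00157, adjusted p = 0.0890). In this fit 0 of the 9 members passed, beside 0.346% of tested genes, and 3 had an unadjusted p under 0.05, beside 16.9%. These were Pnpla3, Plin1 (log2 -0.25, edgeR adjusted p = 0.176) and Adrb3 (log2 -0.59, edgeR adjusted p = 0.136).

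**Figure D5:**
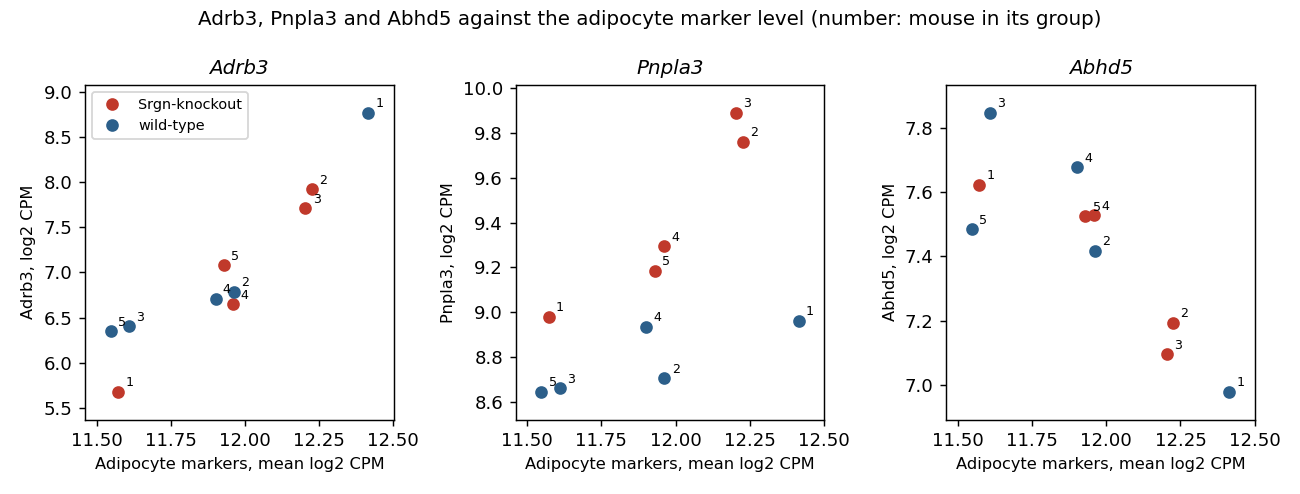
Log2 CPM of Adrb3, Pnpla3 and Abhd5 against the mean log2 CPM of 7 adipocyte markers in Srgn-knockout (red) and wild-type (blue) libraries, numbered by mouse within its group. Adrb3 (r = 0.94) and Abhd5 (r = -0.85) follow the markers in opposite directions. For Pnpla3 (r = 0.61) wild-type 1 and Srgn-knockout 1, at the ends of the marker range for their genotypes, have nearly the same level, 505 CPM for the Srgn-knockout library, against 499 CPM for the wild-type one.

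The genes whose levels were most like each member over the 10 libraries, by Pearson r of log2 CPM among tested genes with a mean of at least 5 CPM, are given as a description. For Adrb3 they were Cped1, Nrg4, a growth factor secreted by fat cells, and Srek1 (r = 0.98 each). For Pde3b they were the amino acid transporter Slc43a1, Bckdhb, a subunit of the branched-chain ketoacid dehydrogenase, and Lgals12, a galectin of fat-cell lipid droplets (r = 0.97 each). Lipe was nearest to Cav2, a caveolin (r = 0.98), then Ube2e2 and Wdsub1, and Plin1 to Shprh, the Hedgehog signal transducer Smo and Ndrg2 (r = 0.98, 0.97 and 0.96). Pnpla2 was nearest to Adgrl4, an adhesion receptor of endothelial cells, Pcca, a subunit of propionyl-CoA carboxylase, and Btnl9 (r = 0.97, 0.97 and 0.96). Mgll was nearest to 3 mitochondrial or fuel-handling enzymes, Pcx, pyruvate carboxylase, Mlycd, malonyl-CoA decarboxylase, and Pdhb of pyruvate dehydrogenase (r = 0.93, 0.92 and 0.89). For Pnpla3 these were the zinc transporter Slc30a4, Nudt13 and the cell-cycle inhibitor Cdkn2c (r = 0.97, 0.96 and 0.95). Abhd5 was nearest to Pgs1, Fam122b and Polr3g (r = 0.95, 0.95 and 0.94), and G0s2 to Rasd1, a Ras-like protein induced by glucocorticoids, Bahcc1 and Zdhhc4 (r = 0.95, 0.94 and 0.93).

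The wider pathway showed 0 genes past the edgeR threshold in any of 5 lists, beside 0.00786% of all tested genes. At an unadjusted p under 0.05 the lists held 3 of 27, 2 of 15, 1 of 15, 1 of 11 and 0 of 10 tested genes, in the order given below. Of all tested genes 12.8% had such a p. In the catecholamine and cyclic AMP arm 27 of 29 genes were tested, 11 with higher and 16 with lower values in Srgn-knockout and a median log2 fold change of -0.02, and 3 had an unadjusted p under 0.05. Adcy9, an adenylyl cyclase that makes cyclic AMP, had 18.2, 20.8, 16.1, 21.1 and 20.5 CPM in Srgn-knockout 1 to 5 and 26.5, 26.8, 22.4, 27.7 and 33.7 CPM in wild-type 1 to 5. The groups did not overlap (log2 -0.50, SE 0.126, edgeR adjusted p = 0.196), and the DESeq2 Wald test called Adcy9 lower (adjusted p = 0.038). Of all tested genes 2.78% had groups that did not overlap and 1.74% were called by DESeq2, in either direction. Prkar2b, the regulatory subunit of protein kinase A that predominates in fat cells, had 83.1, 97.7, 87.2, 109 and 96.3 CPM in Srgn-knockout 1 to 5 and 77.3, 75.2, 77.5, 81.4 and 75.5 CPM in wild-type 1 to 5, again without overlap (log2 0.29, SE 0.0865, edgeR adjusted p = 0.24, DESeq2 adjusted p = 0.0775). Prkg1, a cyclic GMP-dependent kinase, was at 4.35 ± 0.868 CPM in Srgn-knockout mice and 2.97 ± 0.742 CPM in wild-type mice (SD, n = 5, log2 0.55, edgeR adjusted p = 0.383).

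Of the droplet coat and growth list 15 of 20 genes were tested, 9 higher and 6 lower, with a median log2 fold change of 0.03. Cideb, a droplet protein best known from liver, had 5.49, 12.5, 6.55, 5.36 and 6.89 CPM in Srgn-knockout 1 to 5 and 2.21, 2.20, 5.28, 3.09 and 2.79 CPM in wild-type 1 to 5. In CPM its groups did not overlap, by a narrow margin between Srgn-knockout 4 and wild-type 3, at 42 and 52 reads (log2 1.24, SE 0.317, edgeR adjusted p = 0.197). Over the library totals of 8176075 and 9837689 reads, without TMM factors, wild-type 3 was the higher of this pair. The separation of Cideb therefore depends on the scaling. The DESeq2 Wald test called Cideb higher (adjusted p = 0.0268), beside 0.896% of all tested genes. Hsd17b11, a droplet-associated enzyme, had 70.1 ± 7.32 CPM in Srgn-knockout mice and 84.4 ± 14.0 CPM in wild-type mice (log2 -0.27, edgeR adjusted p = 0.385). Ldah, a droplet-associated hydrolase, had 69.1 ± 5.44 CPM in Srgn-knockout mice and 61.0 ± 3.67 CPM in wild-type mice (log2 0.18, edgeR adjusted p = 0.393). Among 15 tested genes of 18 for other lipases and the handling of their products, 6 were higher and 9 lower (median log2 -0.04). Abhd6, another monoacylglycerol lipase, had 40.2 ± 3.62 CPM in Srgn-knockout mice and 48.0 ± 6.82 CPM in wild-type mice (log2 -0.25, edgeR adjusted p = 0.378). Glycerol kinase, Gk, which returns glycerol to triglyceride synthesis, had 41.6 ± 7.53 CPM in Srgn-knockout mice and 28.7 ± 12.2 CPM in wild-type mice (log2 0.54, edgeR adjusted p = 0.427). Pnpla7, a lysophospholipase, had a log2 fold change of -0.36 (edgeR adjusted p = 0.428). Lipa, the lysosomal acid lipase, named after its values were seen, passed in edgeR with the macrophage covariate (log2 0.63, adjusted p = 0.026), against a log2 fold change of -0.05 in edgeR without it (adjusted p = 0.97). With the covariate 0.346% of all tested genes passed, and 0.11% passed with higher values in Srgn-knockout. As said above, that fit cannot fully tell genotype and macrophage level apart. In the insulin arm 4 of 11 tested genes were higher and 7 lower (median log2 -0.03). The log2 fold change was -0.15 for the kinase Akt1 and -0.52 for the receptor substrate Irs1 (edgeR adjusted p = 0.502 and 0.562). Irs1 had 18.2 to 35.0 CPM in Srgn-knockout libraries, against 27.2 to 29.8 CPM in wild-type 2 to 5, which lie inside that range, and 88.2 CPM in wild-type 1. Of 10 transcription factors of lipase and droplet genes 6 were higher and 4 lower (median log2 0.02). The smallest p among them belonged to Nr1h3, the oxysterol receptor LXR alpha (187 ± 21.7 CPM in Srgn-knockout mice and 211 ± 26.9 CPM in wild-type mice, edgeR adjusted p = 0.53), followed by Ppargc1a (log2 0.37, adjusted p = 0.586) and Cebpb (log2 0.17, adjusted p = 0.737).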

How the data were processed

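The deposited counts are whole numbers of reads per amplicon, for 23930 genes in each of 10 libraries of total RNA. Amplicon libraries were prepared with an Ion AmpliSeq kit, per the labels' protocols. Build mm9 is named in the submitters' processing notes; for aligner or counter none is given in the sources used here. A second table from the authors gives RPM, equal to the raw count over the library's total within 0.000591. Strand use in counting is not stated: annotated opposite-strand genes overlap Pnpla3, Lipe, Mgll, Abhd5, G0s2 and Adrb3, and reads from these cannot be told apart there. Amplicon specificity was not tested.

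Counts were analysed in R 4.3.3. The default filter of edgeR 4.0.16 (minimum count 10, minimum total 15) kept 12719 genes. The edgeR quasi-likelihood test (robust, TMM factors, no covariate, two-sided) was fitted to all of them with Benjamini-Hochberg adjustment over all of them, and was tested on simulated data. Log2 CPM used a prior count of 2. Alternatives were DESeq2 1.42.0, limma 3.58.1 (voom, and trend on the deposited RPM values with a pseudocount of 1), other scalings, no filter, and leaving out libraries. Permutation tests used Python 3.11.15. Each library is 1 mouse, numbered within its group in accession order, which pairs no animals.

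The members, lists, ratios and most alternatives were chosen with earlier results of these data known. Named genes were the 9 members, Srgn, the 3 genes with the smallest p in each pathway list and the 3 nearest genes of each member. A gene of the insulin list that this rule names is not reported here. Sequences were taken from RefSeq promoters on GRCm38.p6.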

Additional observations from a re-analysis of the deposited data

Results flagged for a closer look

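For 32 sets of 5 values (9 genes and 7 ratios in 2 genotypes) the gap of the most extreme library to its neighbour was set against the range of its group, and 5 exceeded the limit of 0.71 of the range, where chance flags about 1 set in 20. Wild-type 1 stood above its group for Adrb3 (435 CPM, gap 0.919 of the range) and for Pde3b (498 CPM, 0.831), and had the lowest log2 ratio of Abhd5 to Pnpla2 (-5.00, 0.771). Srgn-knockout 1 was below its group for Pnpla2 (2383 CPM, 0.721) and above it for the log2 ratio of Lipe to Pnpla2 (-0.36, 0.757). The adipocyte markers of wild-type 1 summed to 63793 RPM and its macrophage markers to 1636 RPM, the highest and the lowest of the 10 libraries, and those of Srgn-knockout 1 to 37478 and 3308 RPM, the lowest and the highest of its group. Their part in these values was not tested.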

How the results depend on the processing

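The log2 fold change of Pnpla3 stayed between 0.51 and 0.77 over 19 alternatives and passed in 1, the DESeq2 Wald test, with edgeR adjusted p-values from 0.0890 to 0.999 in the others that use edgeR. DESeq2 called 114 genes higher and 107 lower and 1 of the 9 members, edgeR without a low-count filter called 3 lower, and the macrophage covariate 14 higher and 30 lower. Leaving out 1 library gave 0 higher and 1 to 2 lower genes. The other 8 members did not pass under any alternative. The sign of a difference near 0 changed for Lipe (-0.0554 to 0.11 with 1 library left out), Mgll (-0.0401 to 0.0947), G0s2 (-0.0700 to 0.29), Adrb3 (-0.40 to 0.63) and Pde3b (-0.12 to 0.31). It also changed with the macrophage covariate for Pnpla2 (-0.016), Lipe (-0.0752), Mgll (-0.012), Abhd5 (0.0511), G0s2 (-0.024) and Pde3b (-0.20), for Adrb3 in limma-voom (0.0024) and limma-trend (0.0488), and for Pde3b with RLE factors (-0.0041), no filter (-0.0087), DESeq2 (-0.0039) and without the 3 epididymis libraries (-0.0376). The ratio of Pnpla3 to Pnpla2 differed by 0.46 to 0.61 with 1 library left out. Ratios that changed sign were G0s2/Pnpla2 (-0.15 to 0.31), Lipe/Pnpla2 (-0.12 to 0.0291, and 0.012 without the 3 epididymis libraries), Mgll/Lipe (-0.10 to 0.0307), Plin1/Abhd5 (-0.17 to 0.22) and Pde3b/Adrb3 (-0.17 to 0.19). The 6 correlated pairs became 14 with group means subtracted and 11 with total reads alone. The cause of these changes was not tested. No paired analysis was possible because replicate numbers only name the mice.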
